A study of Mus musculus with 4 samples.

Results

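A set of 10 smooth muscle contractile genes was followed in the single-cell transcriptomes of the mouse aortic arch: Acta2, Myh11, Tagln, Cnn1, Myl9, Mylk, Lmod1, Smtn, Des and Myocd. They were chosen by name, as 10 of the 31053 genes in the count tables. The rule uses no value, but the genes were chosen with earlier results of these data known. All 10 had UMIs (unique molecular identifiers, each counting 1 captured mRNA molecule) in every library, and levels are given as CPM (UMIs of the gene in 1000000 UMIs of the same cells). Their levels were read in cells with no Ptprc UMI, by marker-gated cell type, and in leukocytes.

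Arterial smooth muscle cells hold vessel tone by sliding actin filaments, which contain the alpha actin Acta2, along filaments of the smooth muscle myosin Myh11. Calcium bound to calmodulin activates the myosin light chain kinase Mylk, which phosphorylates the regulatory light chain Myl9. Much of this program is switched on by serum response factor together with its coactivator myocardin (Myocd) at a DNA element named the CArG box, and it is known to be lowered when the cells change their phenotype in atherosclerotic arteries.

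Cells came from digested aortic arches with their main branches and perivascular tissue of male mice that were 3 months old at the start. Each of the 4 groups was 1 library of pooled mice. The Nrf2flox/flox mice carried the floxed Nrf2 (Nfe2l2) allele and were the controls of the Nrf2Cdh5tKO mice, which carried in addition a Cre transgene driven by the Cdh5 promoter, active in endothelium and in a share of leukocytes. The atherosclerotic mice of both genotypes were fed a high-fat diet for 21 weeks, with 3 mice in each pool. The normocholesterolemic mice were fed a standard diet, with 4 mice in each pool. Values for all libraries are given in 1 order: normocholesterolemic Nrf2flox/flox, normocholesterolemic labelled Nrf2Cdh5tKO, atherosclerotic Nrf2flox/flox and atherosclerotic labelled Nrf2Cdh5tKO. With 1 library a group no difference between groups could be tested, and diet, genotype and library cannot be told apart. All intervals are exact 95% intervals and cover counting error only.

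The libraries held 1160 to 8512 barcodes and 12276546 to 98754487 UMIs, and 1020 to 7890 cells a library passed the cell filter. Any 2 libraries shared 2 to 10 barcodes, at most 0.862% of the smaller library. In endothelial-gated cells Nfe2l2, the targeted gene, was at 168 (125 to 222), 375 (303 to 458), 194 (125 to 286) and 363 (275 to 470) CPM. These values, on 25 to 95 UMIs, were higher under the Nrf2Cdh5tKO label in both diets, with overlapping intervals in the atherosclerotic libraries. In leukocyte-gated cells Nfe2l2 was at 308, 287, 301 and 412 CPM. In smooth muscle-gated cells it was at 95.7, 96.9, 114 and 157 CPM. Whether the deleted exon holds the counted 3′ end was not looked up here, so these counts are no check of the deletion. The libraries are named by their labels.

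Smooth muscle-gated cells were those with at least 5 Myh11 UMIs and none of Ptprc, Pdgfra or Cdh5. There were 1112, 279, 61 and 222 of them, 1674 of the 14148 kept cells. This was 14.1% (13.3 to 14.9), 9.39% (8.36 to 10.5), 5.98% (4.61 to 7.62) and 9.80% (8.60 to 11.1) of the kept cells. The gate was checked against markers it did not use. All 8 smooth muscle markers checked (Itga8, Notch3, Npnt, Rgs5, Pcp4l1, Cacna1c, Pln and Kcnmb1) were detected in every library, and summed to 2558, 2946, 3405 and 2895 CPM. All 8 were also detected in fibroblast-gated cells, at a sum of 25.3 to 40.5 CPM. When cells were gated on at least 3 of 6 of these genes in place of Myh11, 97.0% to 100% of the cells found were also in the Myh11 gate. In the other direction, this gate found 1000, 258, 56 and 178 of the 1112, 279, 61 and 222 cells. Markers of other cell types ranged from near 0 to above the leukocyte background. The 6 endothelial markers summed to 0.457 to 3.41 CPM, the 4 Schwann cell markers to 0 to 1.94, the 4 mesothelial markers to 0 to 1.14 and the 5 skeletal muscle markers to 2.90 to 7.40. The 6 cardiac markers, among them Ryr2, which smooth muscle also uses, summed to 36.5 to 53.3 CPM. The 6 leukocyte markers summed to 107 to 186 CPM, against 8745 to 14638 in leukocyte-gated cells. The 6 fibroblast markers, which include abundant Dcn and Col1a1, summed to 2108, 1823, 2647 and 2275 CPM, against 31967 to 39165 in fibroblast-gated cells and 511 to 1208 in leukocyte-gated cells. In atherosclerotic Nrf2flox/flox 1 of the 61 cells, with 58 Myh11 UMIs, held 42.9% of these fibroblast marker UMIs, and without it they were at 1579 CPM. The 5 pericyte markers summed to 283 to 539 CPM, with Higd1b and Vtn at 0 in all libraries but normocholesterolemic Nrf2flox/flox. They were at 297 to 513 CPM in fibroblast-gated cells, so their sum did not separate these types. In the cells gated on Kcnj8 and Abcc9 described further on they were at 615 to 1124. Those cells are high in part by their gate, since both genes are among the pericyte markers.

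Cells with at least 5 UMIs of both Tnnt2 and Actc1, which mark cardiac muscle, were kept out of the smooth muscle gate. The normocholesterolemic Nrf2flox/flox library held 44 of them, and all 44 had at least 5 Myh11 UMIs. Of the cardiac markers checked, they had 0 UMIs of the atrial genes Myl7, Nppa and Sln. They did hold Myh6 (10 UMIs in 4 cells), Tnni3 (22 UMIs in 6 cells) and Ryr2 (24 UMIs in 15 cells). The 6 cardiac markers summed to 75.1 CPM in them, against 37.8 in the smooth muscle-gated cells of that library. All 8 smooth muscle markers were detected in them and summed to 1922 CPM, against 2558. By these checks the 44 cells were close to the smooth muscle gate, and they are named by Tnnt2 and Actc1 only. They held 283 Des UMIs, in 21 cells, and the Des and Tnnt2 values further on do not include them. The normocholesterolemic library labelled Nrf2Cdh5tKO held 9, of which 4 carried Nppa UMIs. The atherosclerotic libraries held 0.

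Acta2 and Myl9, 2 of the members that varied together from cell to cell, are shown first with the CArG boxes in their promoters. The promoter windows were RefSeq sequences on GRCm38.p6, from 250 bases before to 50 bases after each RefSeq start, and 7 of the 10 members had one. A CArG box was taken as CC, then 6 bases of A or T, then GG, which reads the same on both strands. The Myl9 window held 1 full box, within chr2:156775293-156775322 on the forward strand. It also held a box with 5 of the 6 inner bases A or T, within chr2:156775355-156775384. The Acta2 window held 2 boxes with 5 of 6, within chr19:34255438-34255467 and chr19:34255388-34255417 on the reverse strand. Each position is that of the printed stretch, the box with its 10 bases on either side. Each box is printed with 10 bases on either side, 5′ to 3′ on the gene's strand, with the box in capitals.
Myl9 full box: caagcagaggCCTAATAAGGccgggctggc
Myl9 box with 5 of 6: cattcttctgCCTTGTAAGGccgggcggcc
Acta2 distal box with 5 of 6: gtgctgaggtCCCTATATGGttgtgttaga
Acta2 proximal box with 5 of 6: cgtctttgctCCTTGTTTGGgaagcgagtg
The windows of Cnn1, Des, Lmod1, Mylk and Smtn held neither form. Of all 32851 promoter windows of the same length, 1.63% held a full box and 9.98% held a box with at least 5 of 6, so the looser form is common by itself. The Acta2 windows lie inside the first exon of the longer GENCODE model of the gene, so their distance from the start depends on the annotation. These matches are a description of sequence and not of binding.

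In smooth muscle-gated cells the 10 genes together made up nearly 1 in 20 UMIs. They summed to 48158, 46792, 42499 and 45782 CPM. The lowest library was 1.13-fold below the highest. Since a UMI counts a molecule by its 3′ end whatever the transcript's length, the genes are set side by side in CPM. The smooth muscle-gated cells held 66.9% to 76.1% of all UMIs of the 10 genes in each library, and cells that met no gate held 16.1% to 26.8%. Over all kept cells, a level that also follows the number of smooth muscle cells, the 10 genes were at 12240, 7106, 3292 and 8405 CPM.

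The filament genes led, with positions given on GRCm38. Acta2 (chr19:34241090-34255590, reverse strand) was the most abundant, at 21765, 20154, 17735 and 20461 CPM. Tagln (chr9:45929619-45936058, reverse strand), the actin-binding protein transgelin or SM22, followed at 15318, 14060, 12489 and 14243. In both genes the highest value was in normocholesterolemic Nrf2flox/flox and the lowest in atherosclerotic Nrf2flox/flox, and the Tagln exons overlap those of Pcsk7 on the other strand. Myh11 (chr16:14194535-14291372, reverse strand) was at 3164, 4014, 4051 and 3273, a level bounded below by the gate itself. Its order across libraries was the opposite of that of Acta2 and Tagln. Cnn1 (chr9:22099216-22109630, forward strand), the actin-binding calponin that slows the myosin ATPase, was at 1518, 1647, 1333 and 1365.

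The light chain and its kinase differed by at most 1.23-fold between the libraries compared. Myl9 (chr2:156775420-156781658, forward strand) was at 4115, 4337, 4286 and 4201 CPM, within 1.05-fold in the normocholesterolemic libraries. Mylk (chr16:34745210-35002420, forward strand) was at 852, 932, 1045 and 971, lowest in normocholesterolemic Nrf2flox/flox. Antisense transcripts overlap Mylk exons.

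Lmod1 (chr1:135324807-135368065, forward strand), a leiomodin that nucleates actin filaments, separated the libraries more than the other abundant members, at 777, 1176, 1039 and 756 CPM. Smtn (chr11:3517523-3540612, reverse strand), the filament-bound smoothelin, was even across libraries at 368, 346, 398 and 366. Myocd (chr11:65176561-65269989, reverse strand), the transcriptional coactivator, was low at 112, 87.7, 102 and 94.1. Des (chr1:75360329-75368579, forward strand), the intermediate filament desmin, was low and the most uneven, at 170, 37.9, 21.6 and 51.7.

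From high to low the order was Acta2, Tagln, Myl9, Myh11, Cnn1, then Mylk and Lmod1, then Smtn, then Myocd and Des. The ranges of Mylk (852 to 1045) and Lmod1 (756 to 1176) over the 4 libraries overlapped, as did those of Myocd (87.7 to 112) and Des (21.6 to 170), so neither pair has an order. The ranges of all other neighbours in this order did not overlap, with Myl9 (4115 to 4337) and Myh11 (3164 to 4051) the closest.

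**Figure D1:**
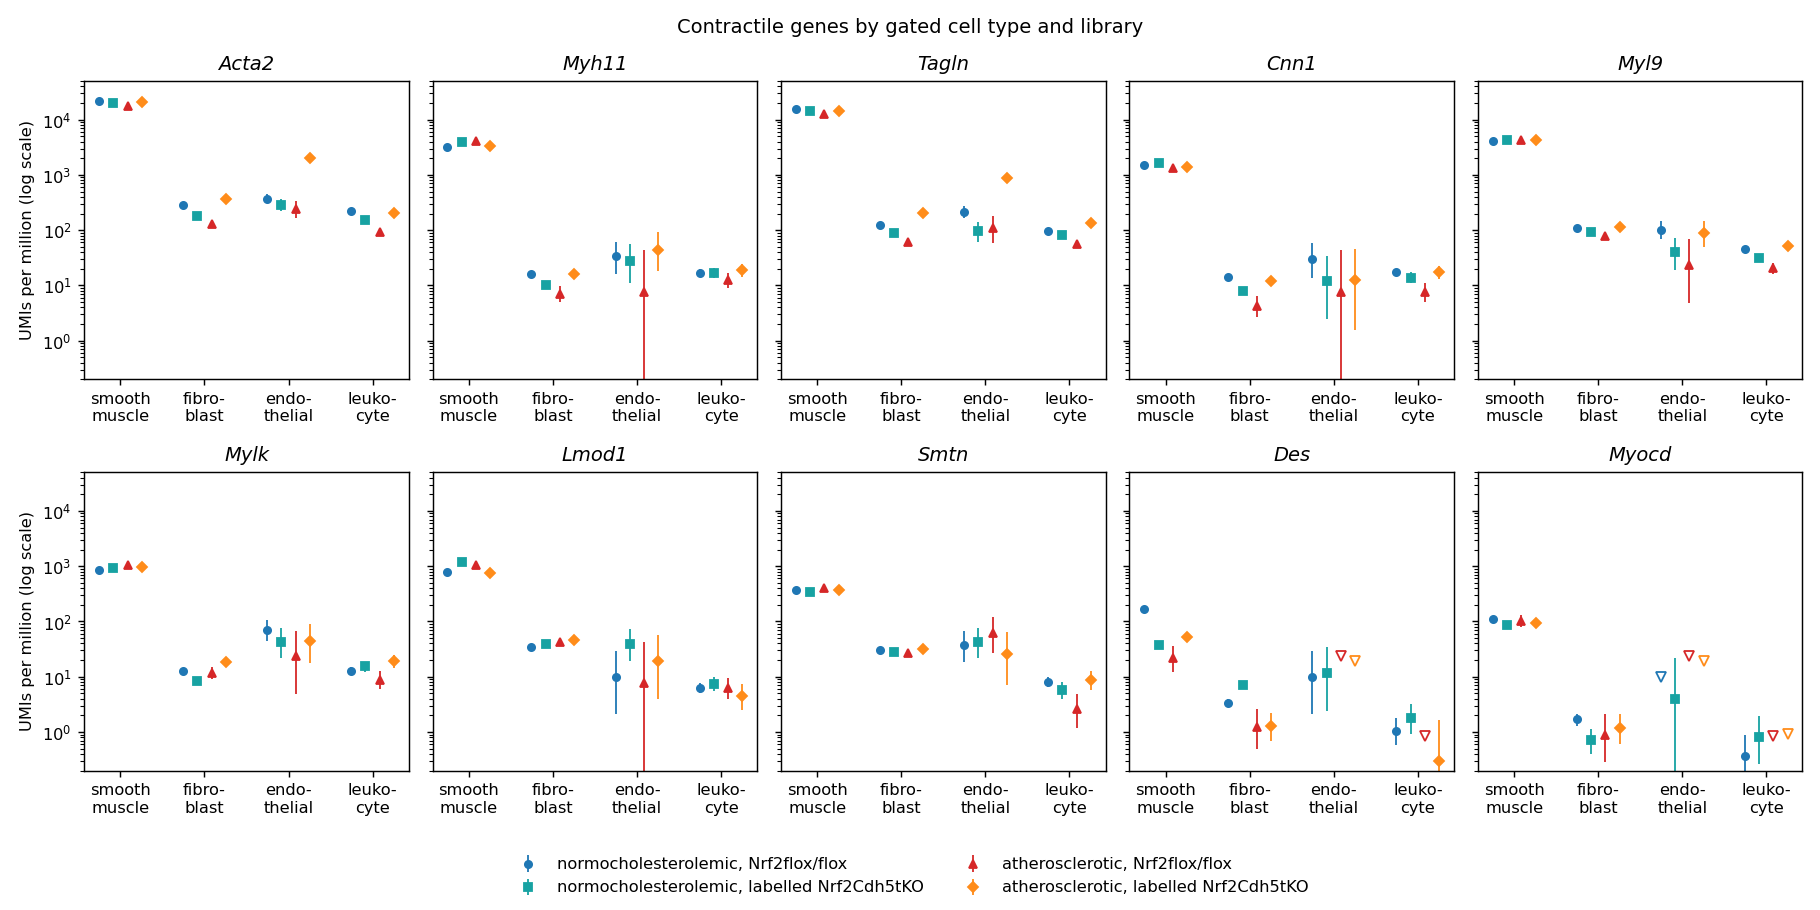
CPM (log scale) of each of the 10 contractile genes by gated cell type, with 1 point for each library and exact 95% counting intervals; the leukocytes plotted have Myh11 under 5 UMIs, and open triangles mark the limit that a count of 0 allows (3 counts). Acta2 was at 17735 to 21765 in smooth muscle-gated cells and Myocd at 87.7 to 112. The endothelial Acta2 point of the atherosclerotic library labelled Nrf2Cdh5tKO stands apart, and 54.5% of its UMIs came from 1 cell. The part of that cell in the difference was not tested.

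Between the labels in the normocholesterolemic mice, the question was whether the contractile program of smooth muscle differed between the Nrf2Cdh5tKO and Nrf2flox/flox labels. The sum of the 10 genes was nearly level, with a log2 ratio of labelled Nrf2Cdh5tKO to Nrf2flox/flox of -0.04 (-0.05 to -0.03). A gene was counted as past the size limit when its ratio was at least 1.5-fold, its interval left out 0 and it had at least 100 UMIs in the 2 libraries together. Of the 10 members, 1 was higher past this limit, against 5.91% of the 9637 genes so compared, and 1 was lower, against 3.58%. Lmod1 was 1.51-fold higher under the Nrf2Cdh5tKO label (1176 against 777 CPM; log2 ratio 0.60, 0.55 to 0.64), which is just past the limit, and it fell short of it when cells were thinned, averaged or rescaled. Des was 4.49-fold lower (37.9 against 170; log2 ratio -2.17, -2.40 to -1.94). Myh11 was 1.27-fold higher (log2 ratio 0.34) and Myocd 1.27-fold lower (log2 ratio -0.35, -0.51 to -0.19). The other 6 members had log2 ratios of -0.12 to 0.13, and the median of all genes compared was 0.07.

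Between the labels in the atherosclerotic mice the sum had a log2 ratio of 0.11 (0.09 to 0.13). Des was the only member past the limit, 2.39-fold higher under the Nrf2Cdh5tKO label on 143 against 15 UMIs (log2 ratio 1.26, 0.49 to 2.13), with 3.14% of the 4457 genes compared past it in this direction. None of the 10 was lower past the limit, where 5.81% of the genes compared were. Lmod1 was 1.38-fold lower (log2 ratio -0.46, -0.58 to -0.34) and Myh11 1.24-fold lower (-0.31, -0.37 to -0.25). Acta2 (log2 ratio 0.21) and Tagln (0.19) were higher. For Des, Lmod1, Myh11, Acta2, Tagln and the sum, the sign was therefore the opposite of that in the normocholesterolemic libraries. The opposite sign of Des rests on few cells. Without cells of at least 5 Des UMIs its atherosclerotic log2 ratio was -0.36, on 18 against 6 UMIs, too few to settle the sign. The atherosclerotic Des ratio fell short of the limit when cells were thinned to 5000 UMIs or when cells with Pdgfra or Cdh5 were kept. In the cells with at most 5% mitochondrial UMIs, a limit chosen after the values were seen, it was 3.36.

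The comparison of diets asks how the contractile genes stood in smooth muscle cells of atherosclerotic arches. In Nrf2flox/flox mice the sum was 1.13-fold lower in the atherosclerotic library (log2 ratio -0.18, -0.20 to -0.16). Acta2 and Tagln were both 1.23-fold lower, with log2 ratios near -0.30. In the cells with at most 5% mitochondrial UMIs both log2 ratios were -0.13, and with cells thinned to 5000 UMIs they were -0.36 and -0.30. In atherosclerotic Nrf2flox/flox 15 of the 61 cells gave under 2% of their UMIs to the 10 genes, at a median depth of 5019 UMIs and a median mitochondrial share of 10.1%. In the other cells, a set chosen by these genes, Acta2 was at 20448 against 22075 CPM and Tagln at 14169 against 15547. Myh11 (log2 ratio 0.36), Lmod1 (0.42, 0.31 to 0.53) and Mylk (0.30, 0.19 to 0.40) were higher. The median of all genes compared was itself shifted by 0.11, and relative to that median Acta2 was at -0.41, Tagln at -0.41, Myh11 at 0.24 and Lmod1 at 0.31. Only Des passed the limit, 7.87-fold lower on 15 against 2898 UMIs (log2 ratio -2.98, -3.82 to -2.25), where 3.99% of the 9172 genes compared were lower past it. No member was higher past the limit, where 11.8% of genes were.

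In the mice labelled Nrf2Cdh5tKO the sum was level between diets (log2 ratio -0.03, -0.04 to -0.02), as were Acta2 (0.02) and Tagln (0.02). Lmod1 was 1.56-fold lower in the atherosclerotic library (756 against 1176 CPM; log2 ratio -0.64, -0.71 to -0.57) and was the only member past the limit, with 4.12% of the 6818 genes compared lower past it. It fell short of the limit when cells were thinned to 5000 UMIs (log2 ratio -0.56). No member was higher past the limit, where 4.12% of genes were. Myh11 (log2 ratio -0.29) and Cnn1 (-0.27) were lower. Each library enters 2 of these 4 comparisons, so they are not independent of each other.

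Lmod1 and Myh11 were both lower in normocholesterolemic Nrf2flox/flox and in the atherosclerotic library labelled Nrf2Cdh5tKO than in the other 2 libraries. The immediate early genes Fos, Jun, Junb and Egr1, which are known to be induced during tissue digestion, summed in the same cells to 12375, 8973, 9043 and 12090 CPM, higher in the same 2 libraries. Their part in the differences of Lmod1 and Myh11 was not tested. The median share of mitochondrial UMIs in these cells was 3.91%, 3.90%, 3.90% and 3.33%.

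**Figure D2:**
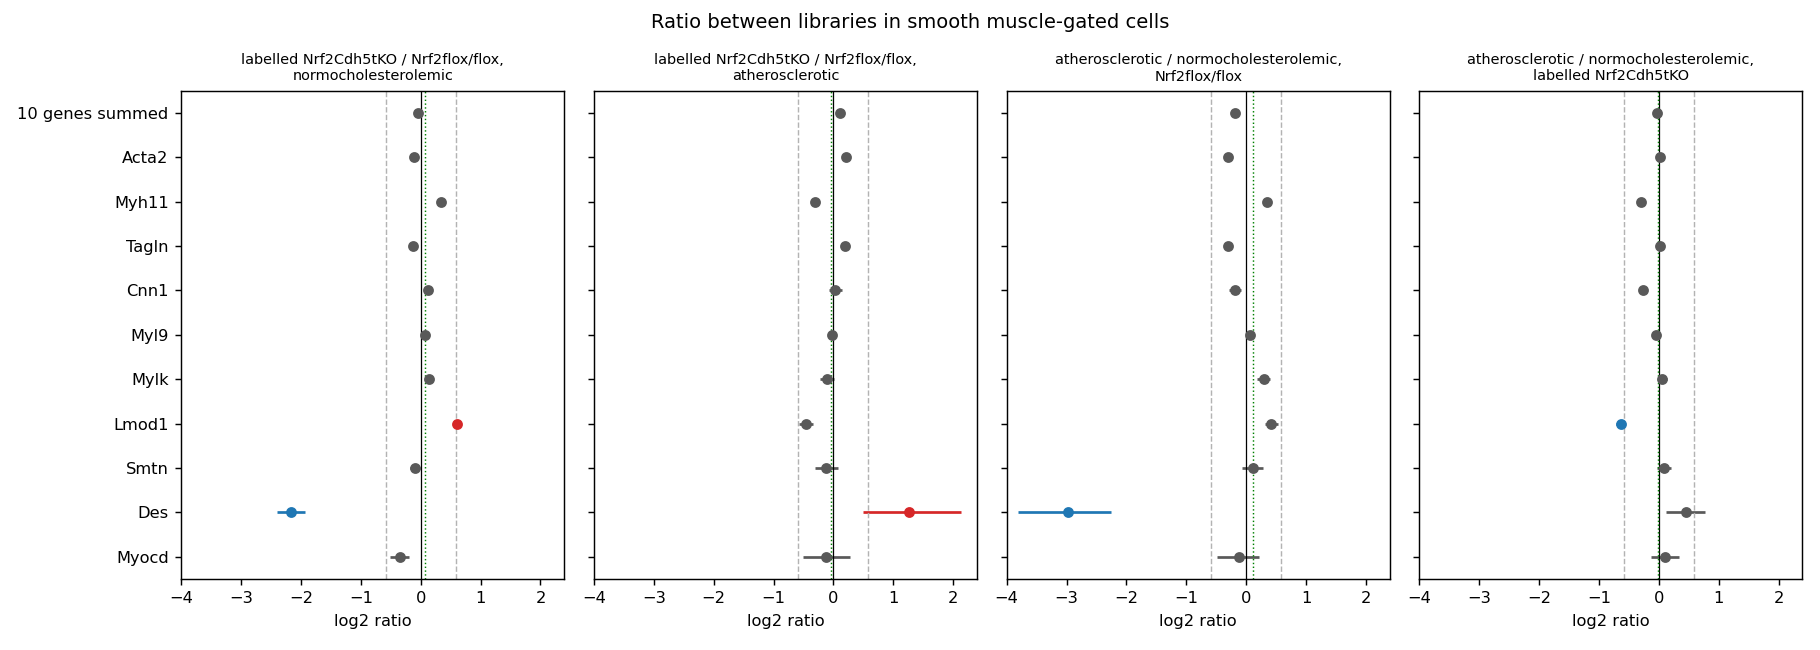
Log2 ratio between 2 libraries of each contractile gene and of their sum in smooth muscle-gated cells, 1 panel for each comparison, with exact 95% counting intervals; dashed lines mark 1.5-fold, the dotted line the median of all genes compared, and colour marks genes past the limit. Des and Lmod1 lie outside the dashed lines in some panels, and the sum stays between -0.18 and 0.11.

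Genes that work with the 10 were read from lists named by function. Of 33 contractile partners (with tropomyosins, filamin, adhesion proteins and the myosin phosphatase among them), 0 were higher and 1 was lower past the limit between labels in the normocholesterolemic libraries, which was Pln, the phospholamban that restrains the calcium pump of the store. Of all genes compared there, 5.91% were higher and 3.58% lower past the limit. Between labels in the atherosclerotic libraries 0 of 32 passed in either direction, with a median log2 ratio of -0.19. Here 3.14% of all genes compared were higher and 5.81% lower. By diet in Nrf2flox/flox, 2 were higher (Nexn and Tln1) and 6 lower (Actg2, Cav1, Palld, Pdlim3, Pln and Tpm2) of 33, against 11.8% and 3.99% of all genes compared. By diet in the mice labelled Nrf2Cdh5tKO, 0 were higher and 2 lower (Actg2 and Cav1) of 32, against 4.12% in each direction. Actg2 and Cav1 were therefore lower past the limit in both diet comparisons. Actg2, the gamma actin of smooth muscle, was at 454 and 274 CPM in normocholesterolemic and atherosclerotic Nrf2flox/flox cells and at 407 and 232 under the Nrf2Cdh5tKO label. Cav1, the caveolar protein caveolin, was at 554 and 339, and at 556 and 288.

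Of 13 genes of calcium entry and store, none passed the limit between labels in the normocholesterolemic libraries or by diet under the Nrf2Cdh5tKO label. Of all genes compared, 5.91% were higher and 3.58% lower in the first, and 4.12% in each direction in the second. Ryr2, the ryanodine receptor of the store, was lower between labels in the atherosclerotic libraries, as 1 of 10 with enough UMIs, against 5.81% of all genes compared. Abcc9, a subunit of the ATP-sensitive potassium channel, was higher by diet in Nrf2flox/flox, as 1 of 13, against 11.8%.

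Among 24 genes that control transcription of the contractile program, the Notch target Heyl was higher between labels in the normocholesterolemic libraries, as 1 of 22 with enough UMIs, and 0 of 14 passed in the atherosclerotic libraries. Of all genes compared, 5.91% were higher and 3.58% lower in the first, and 3.14% and 5.81% in the second. By diet in Nrf2flox/flox, Notch3, Tead1 and Klf4 were higher and Tcf21 lower, of 22, against 11.8% and 3.99% of all genes compared. By diet under the Nrf2Cdh5tKO label, Mkl2 and Klf4 were higher and Notch3 lower, of 17, against 4.12% in each direction. Klf4, a factor known to repress the contractile genes, was thus higher past the limit in both diet comparisons, at 207 and 520 CPM in Nrf2flox/flox and at 191 and 356 under the Nrf2Cdh5tKO label. Fibroblast-gated cells held more Klf4 (1135 to 1504 CPM), and leukocytes with Myh11 under 5 held 299 to 543.

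Genes of modulated smooth muscle gave a median log2 ratio of -0.59 over 14 of 16 genes between labels in the normocholesterolemic libraries, with 0 higher and 7 lower past the limit. Of all genes compared there, 5.91% were higher and 3.58% lower past it. The 7 lower were Ly6a, Vcam1, Lum, Dcn, Thbs1, Mmp3 and Ly6c1. Some were near or below their leukocyte level. In normocholesterolemic Nrf2flox/flox, smooth muscle-gated cells and leukocytes with Myh11 under 5 had Dcn at 373 and 410 CPM. Ly6a was at 33.8 and 87.5, Ly6c1 at 11.7 and 15.2, and Mmp3 at 32.5 and 25.7. The fibroblast markers in leukocyte-gated cells summed to 1208 and 558 CPM in the 2 normocholesterolemic libraries. Between labels in the atherosclerotic libraries 1 was higher (Vcam1) and 0 lower of 12, against 3.14% and 5.81% of all genes compared. By diet in Nrf2flox/flox, 4 were higher and 3 lower of 14, against 11.8% and 3.99%. By diet under the Nrf2Cdh5tKO label, 7 were higher and 1 lower of 13, with a median log2 ratio of 0.66, against 4.12% in each direction. Ly6a, Dcn, Mmp3 and Ly6c1 were past the limit upward in both diet comparisons when all cells were summed, but single cells carried much of these counts. In atherosclerotic Nrf2flox/flox 1 of the 61 cells held 366 of the 430 Dcn UMIs, 72.1% of those of Ly6a and 76.7% of those of Ly6c1, and another cell held 65.7% of those of Mmp3. In the atherosclerotic library labelled Nrf2Cdh5tKO the highest cell of each gene held 37.8% to 53.7%. With the highest cell of each gene left out of each library, normocholesterolemic and atherosclerotic Nrf2flox/flox cells had Dcn at 330.3 and 96.3 CPM and Ly6a at 31.9 and 28.6. Mmp3 was at 27.7 and 17.6, and Ly6c1 at 10.3 and 10.5. This leaves out 1 of 1112 and 1 of 61 cells, chosen by the gene compared, which lowers the smaller library more. It therefore cannot settle the direction in Nrf2flox/flox. Under the Nrf2Cdh5tKO label the 4 genes were still higher in the atherosclerotic library, with Dcn at 117 and 270.5 CPM and Ly6a at 18.4 and 39.2. With the 1 cell of each library richest in fibroblast markers left out, 2 genes of the list were higher (Vcam1 and Mmp3) and 3 lower (Lgals3, Lum and Dcn) past the limit by diet in Nrf2flox/flox. Mmp3 was there at a log2 ratio of 0.70 (0.16 to 1.19), Dcn at -1.78, Ly6a at -0.24 and Ly6c1 at -0.15. Under the label 6 were higher and 1 lower of 12. Ly6a, Dcn, Mmp3 and Ly6c1 are abundant in fibroblasts. Without the cells richest in fibroblast markers, these markers summed to 2059 and 1579 CPM by diet in Nrf2flox/flox and to 1787 and 1907 under the label. The part of fibroblast RNA in these differences, by label or by diet, was not tested. Of 9 myofibroblast genes, 2 to 6 had enough UMIs in a comparison. Tnc was higher and Fap lower, of 6, between labels in the normocholesterolemic libraries, and none of 2 passed in the atherosclerotic ones. Actg2 and Fap were lower, of 5, by diet in Nrf2flox/flox, and Actg2 was lower, of 3, by diet under the label. The shares of all genes are those given above for each comparison.

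Des was carried by few cells. Of 2898, 166, 15 and 143 Des UMIs in smooth muscle-gated cells, 93.6%, 84.3%, 60% and 87.4% came from cells with at least 5 Des UMIs. Those cells numbered 150, 15, 1 and 7, which is 13.5% (11.5 to 15.6), 5.38% (3.04 to 8.71), 1.64% (0.0415 to 8.80) and 3.15% (1.28 to 6.39) of the gate. The Des-rich cells held 2712, 140, 9 and 125 Des UMIs in all. Outside them Des was at 13, 6.32, 8.81 and 6.87 CPM. Between the normocholesterolemic libraries, the share of Des-rich cells, their mean Des UMIs a cell and the Des level outside them were all lower under the Nrf2Cdh5tKO label. The parts of these in the 4.49-fold and 7.87-fold differences were not separated. When every cell was thinned to 5000 UMIs, leaving out 59, 18, 11 and 27 shallower cells, 18.7%, 8.81%, 6% and 6.15% of cells had a Des UMI (23.5%, 11.8%, 11.5% and 6.76% unthinned). Without the Des-rich cells the ratio between labels in the atherosclerotic libraries turned to -0.36 on the log2 scale, from 1.26. That value rests on 18 against 6 Des UMIs. A Scrublet doublet call fell on none of the Des-rich cells, and with 15 to 166 Des UMIs in 3 of the libraries a few cells set each value.

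Within the normocholesterolemic Nrf2flox/flox library the 150 Des-rich cells were set beside cells with 0 Des UMIs. The genes named here were chosen after their values were seen. The other 9 members were within 1.25-fold, from Cnn1 (1.25-fold higher) and Tagln (1.19-fold higher) to Smtn (1.02-fold lower). Tnnt2, the cardiac troponin T, was 8.99-fold higher (497 against 55.3 CPM). It was also 4.42-fold higher in the Des-rich cells of the normocholesterolemic library labelled Nrf2Cdh5tKO and 8.91-fold higher in those of the atherosclerotic one. Psd (6.57-fold), Tcf21 (5.49-fold), Corin (4.05-fold) and the actin-associated Palld (3.02-fold) were higher, and the ephrin receptor Epha3 was 15.3-fold lower (1.84 against 28.3 CPM, on 5 UMIs in the Des-rich cells). At least 2-fold differences were found in 32 genes upward and 99 downward of 8802. Palld was not higher in the Des-rich cells of the normocholesterolemic library labelled Nrf2Cdh5tKO (90.2 against 101 CPM), which were 15 cells, while in the atherosclerotic library with that label it was at 146 against 79.2 CPM (log2 ratio 0.88, 0.16 to 1.53).

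From cell to cell the summed share of the 10 genes spread widely. The median smooth muscle-gated cell gave 4.72%, 4.33%, 3.60% and 4.33% of its UMIs to them, with quartiles of 3.86% and 5.53%, 3.36% and 5.49%, 2.07% and 5.14%, and 3.01% and 5.62%. The lowest cell in each library was at 0.328%, 0.739%, 0.779% and 0.207%, and the highest at 13.5%, 9.18%, 7.51% and 10.0%. Cells under 2%, a limit chosen after the values were seen, were 2.43% (1.61 to 3.51), 5.02% (2.77 to 8.28), 24.6% (14.5 to 37.3) and 9.91% (6.32 to 14.6) of the gate. They numbered 27, 14, 15 and 22.

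These low-share cells differed from the rest in measures the limit did not use. Their median depth was 11572, 7442, 5019 and 6627 UMIs, against 15692, 16570, 12669 and 13298 in the other cells. Their median mitochondrial share was 3.38%, 12.3%, 10.1% and 7.31%, against 3.92%, 3.84%, 3.63% and 3.29%. Malat1, a nuclear RNA, was at 54113, 84519, 57382 and 83061 CPM in them, against 33056 to 40710. Klf4 was at 652, 1059, 1839 and 975 in them and at 198, 167, 259 and 311 in the other cells, so most of the higher Klf4 of atherosclerotic Nrf2flox/flox lay in the low-share cells. Smooth muscle markers were at 1446, 3893, 3947 and 3662 CPM in them and at 2581, 2921, 3298 and 2839 in the other cells. Fibroblast markers were at 6797, 2432, 8426 and 7684 in them, above the 2012, 1807, 1502 and 1878 of the other cells in every library. After thinning to 5000 UMIs, which leaves out 11 of the 61 cells of atherosclerotic Nrf2flox/flox, the medians were 4.76%, 4.42%, 4.28% and 4.44%. The part of depth and RNA quality in the lower median of that library was not tested.

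**Figure D3:**
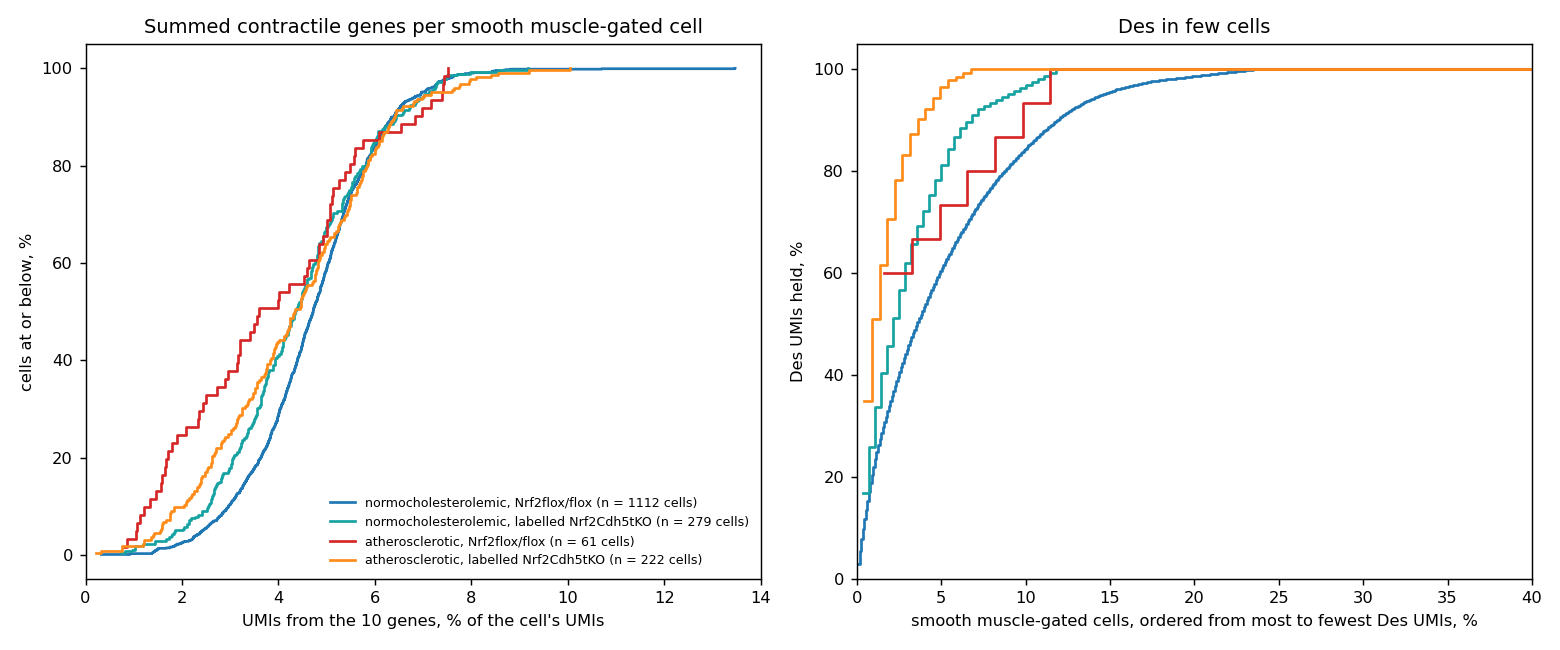
Left, the cumulative share of smooth muscle-gated cells by the percent of each cell's UMIs that came from the 10 genes, 1 line for each library (median 3.60% in atherosclerotic Nrf2flox/flox and 4.33% to 4.72% in the others). Right, the share of Des UMIs held as cells are added from most to fewest Des UMIs, with all Des UMIs in 6.76% to 23.5% of cells.

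Single members differed in how evenly cells carried them. Acta2, Myl9 and Tagln had UMIs in 97.7% to 100% of smooth muscle-gated cells. The upper quartile of the per-cell level of Acta2 was 1.59, 1.71, 4.19 and 2.32 times the lower quartile. That of Mylk was 2.06, 1.87, 1.76 and 2.07 times. In normocholesterolemic and atherosclerotic Nrf2flox/flox it was 1.63 and 2.95 times for Tagln, 1.79 and 3.01 for Cnn1, and 1.56 and 2.84 for Myl9. It was 2.46 and 2.82 for Smtn, 1.85 and 2.27 for Lmod1, and 1.80 and 2.11 for Myh11. The wider spread of atherosclerotic Nrf2flox/flox was thus largest in Acta2, shared by these members and not seen in Mylk. Of cells thinned to 5000 UMIs, Smtn was seen in 79.8%, 77%, 78% and 76.9% (95.4%, 94.6%, 95.1% and 90.1% unthinned) and Myocd in 38.8%, 30.7%, 40% and 35.9% (70.9%, 62.4%, 49.2% and 53.6%). The leukocytes with Myh11 under 5 held 5, 5, 0 and 0 Myocd UMIs in all. The median depth of all leukocyte-gated cells was 7472 to 9558 UMIs.

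Leukocytes, which should lack the contractile genes, were read for a background such as free RNA. Over all leukocyte-gated cells the 10 genes were at 3.98%, 3.08%, 0.590% and 1.57% of the smooth muscle level. Most of this lay in few cells. Leukocyte-gated cells with at least 5 Myh11 UMIs were 28 of 1281, 12 of 596, 2 of 343 and 2 of 332, and held 78.6%, 78.3%, 18.3% and 36.3% of the UMIs of the 10 genes. Scrublet called 11, 7, 1 and 0 of them doublets. In the leukocytes with Myh11 under 5 the 10 genes were at 0.892%, 0.697%, 0.485% and 1% of the smooth muscle level. In these, Acta2 was at 226, 152, 91.7 and 207 CPM and Tagln at 94.9, 80.4, 55.6 and 134. The members were not at 1 common percent of their smooth muscle level in these cells. The median over libraries was 1.93% for Smtn and 1.57% for Mylk, against 0.619% for Lmod1 and 0.596% for Tagln. The part of free RNA in these levels was not tested.

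Fibroblast-gated cells (at least 2 Pdgfra UMIs and Myh11 under 5) held the 10 genes at 639, 465, 365 and 819 CPM, or 1.33%, 0.995%, 0.859% and 1.79% of the smooth muscle level. The members did not keep 1 ratio to the leukocytes. Lmod1 was 5.56, 5.18, 6.80 and 10.1 times its level in leukocytes with Myh11 under 5, Smtn 3.72, 4.87, 10.6 and 3.64 times and Myl9 2.46, 2.88, 3.83 and 2.24 times, with all 12 intervals above 1. Cnn1 was at 0.786, 0.583, 0.552 and 0.692 times, with all 4 intervals below 1. Myh11, which both gates limit, was at 0.947, 0.598, 0.564 and 0.854 times. Lmod1 in fibroblasts was at 35.0, 38.5, 42.9 and 45.9 CPM, and Smtn at 30.1, 28.1, 27.2 and 31.8, which was 6.84% to 8.70% of its smooth muscle level. Median depth was 12229 to 17288 UMIs in fibroblasts and 7472 to 9558 in all leukocyte-gated cells.

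Acta2 in fibroblasts was 1.29, 1.21, 1.42 and 1.79 times the leukocyte level, and Tagln 1.30, 1.11, 1.09 and 1.55 times, with the interval for atherosclerotic Nrf2flox/flox reaching below 1 (0.909 to 1.30). Part of both was concentrated: the 1% of fibroblasts richest in Tagln held 25.8% to 34.8% of its UMIs, and the 1% richest in Acta2 held 9.66% to 25.3%. In fibroblasts Des was at 3.40, 7.02, 1.24 and 1.29 and Myocd at 1.69, 0.711, 0.889 and 1.19 CPM. These were 7 to 158 and 5 to 67 UMIs.

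Endothelial-gated cells were 55, 34, 18 and 19, with 62 to 494 UMIs of the 10 genes. Smtn, on 4 to 11 UMIs, was at 10.0%, 12.5%, 15.6% and 6.96% of its smooth muscle level. Acta2 was at 373, 288, 240 and 2044 CPM, and 54.5% of the 321 UMIs of the last value came from 1 cell. Myocd had 0, 1, 0 and 0 UMIs, so no level of it was detectable at this depth (3 counts would be 10.1, 11.8, 23.2 and 19.1 CPM). Cells gated on Kcnj8 and Abcc9 (85, 14, 10 and 37), channel genes known from pericytes, held the fibroblast markers at 25913 to 43933 CPM, which is near the level in fibroblasts, and are named by these genes only. Myl9 was at 211, 218, 211 and 302 CPM in them, the 10 genes together at 1.12% to 3.83% of the smooth muscle level.

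Across smooth muscle-gated cells within a library, the measured levels of the contractile genes did not all vary together. Spearman correlations of per-cell levels were taken in each library and averaged over the 4. Acta2, Tagln, Cnn1 and Myl9 went together, at 0.49 to 0.76 over their 6 pairs (median 0.60), with Acta2 and Tagln the closest pair (0.76, from 0.61 to 0.83 by library). Myh11, Mylk, Smtn and Myocd formed a looser group, at 0.13 to 0.54 (median 0.26), led by Myh11 and Mylk at 0.54. Between these groups the 16 pairs were at -0.05 to 0.23 (median 0.07). The groups were read from these correlations, so their contrast is a description. Over all 45 pairs the median was 0.13, and 0.14, 0.13, 0.21 and 0.10 by library. Lmod1 sat between the groups at 0.07 to 0.27 to the others, nearest to Myh11. Des stood alone at -0.02 to 0.12, with a mean of 1.02 UMIs a cell, and Myocd had 1.36, so low counts limit both. Smtn had a mean of 5.04 UMIs a cell. Myh11 is cut off below 5 by its own gate.

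**Figure D4:**
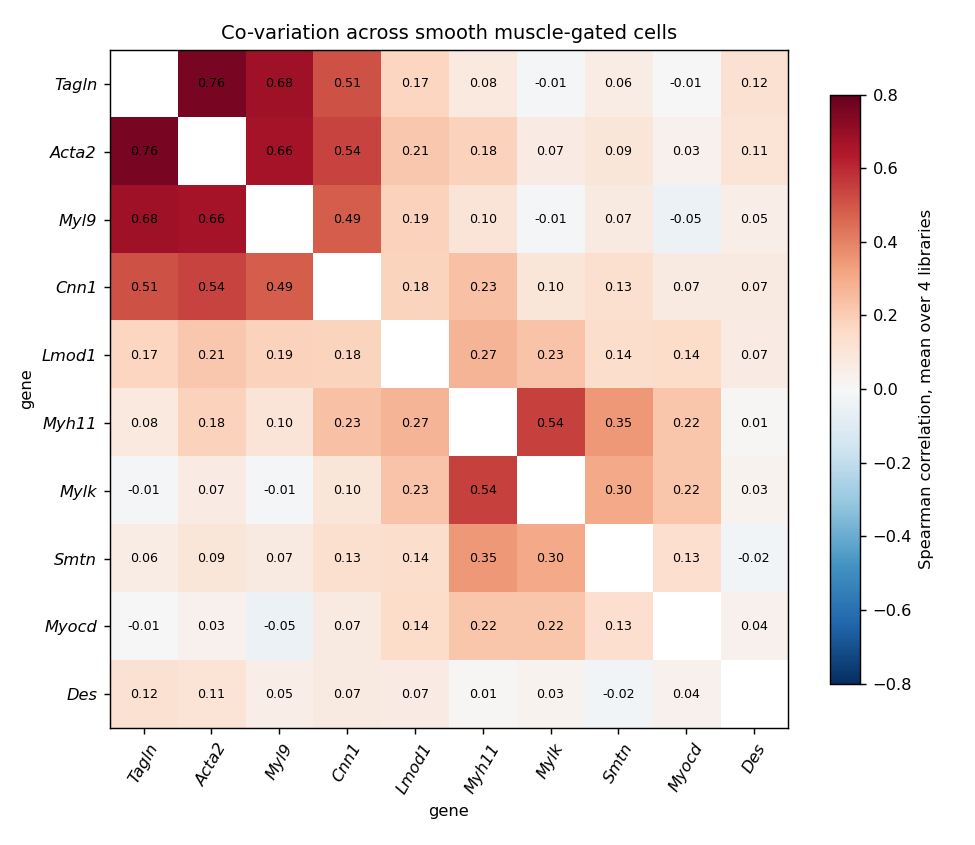
Spearman correlation between each 2 contractile genes across smooth muscle-gated cells, as the mean over the 4 libraries of the per-library value; cells of 1 library share their source. Acta2, Tagln, Myl9 and Cnn1 form the block of 0.49 to 0.76, and Myh11 and Mylk (0.54) a separate pair.

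The genes nearest to each member were read from the same correlations in the same cells, so they describe this division and are no separate support. Among genes outside the 10, Acta2 (0.70), Tagln (0.70) and Myl9 (0.71) were nearest to Myl6, the essential light chain of myosin, and Cnn1 to the tropomyosin Tpm2 (0.49). Myh11 (0.59) and Smtn (0.27) were nearest to the filamin Flna, and Mylk (0.45) and Myocd (0.24) to Ppp1r12a, the targeting subunit of the phosphatase that opposes Mylk. Lmod1 was nearest to the actin-binding caldesmon Cald1 (0.32) and Des to Actg2 (0.21, from 0.03 to 0.38 by library).

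To the sum of the 10 genes, the highest correlations of 3069 other genes were those of Tpm2 (0.73), Myl6 (0.73), the actin-severing Dstn (0.65), the phosphatase inhibitor Ppp1r14a (0.63), Tpm1 (0.62), Tmsb4x (0.55), Actb (0.55) and Csrp1 (0.49). The median gene was at 0.05, with 5% of genes below -0.16 and 5% above 0.29. The lowest were Malat1 (-0.47), Col1a1 (-0.35), Slc38a2 (-0.35), Lrp1 (-0.34), Col1a2 (-0.32), Klf4 (-0.32), mt-Atp6 (-0.30) and mt-Co1 (-0.30). In normocholesterolemic Nrf2flox/flox mt-Atp6 (0.01) and mt-Co1 (0.02) were near 0, so their place rests on the other libraries.

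On the mean over libraries, measures of depth and RNA quality moved with the first group and less with the second. The summed level of Acta2, Tagln, Cnn1 and Myl9 correlated with a cell's total UMIs at 0.37, with its mitochondrial share at -0.30, with Malat1 at -0.50 and with the immediate early genes at -0.27. For Myh11, Mylk, Smtn and Myocd the values were -0.03, 0.20, 0.11 and 0.08. In normocholesterolemic Nrf2flox/flox, the library with the most cells (1112), the mitochondrial share was at 0.009 with the first group and 0.21 with the second. The immediate early genes there were at -0.14 and 0.12. The part of these measures in the division of the 10 genes was not tested.

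Transcript length also divided the genes. The spliced lengths of the first group are 1128 (Myl9), 1595 (Tagln), 2035 (Acta2) and 2381 bases (Cnn1), and those of the second 3386 (Smtn), 5114 (Myocd), 6549 (Myh11) and 7824 bases (Mylk), with no overlap. Des is 3028 and Lmod1 3948 bases long. The same held across the 3069 other genes, which are not independent replicates. The correlation of a gene with the summed members fell along its length with a Spearman value of -0.53 (-0.62 to -0.42 by library), and its correlation with Myh11 climbed with one of 0.58 (0.34 to 0.69). For the shortest, middle and longest 1023 genes the median correlation with Acta2 was 0.16, 0.05 and -0.03, and with Myh11 it was -0.10, -0.01 and 0.06. In the plot of correlation by length, Tagln, Myl9 and Cnn1 for Acta2 and Mylk for Myh11 lay near the top of the genes of like length. The part of transcript length was not tested further.

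**Figure D5:**
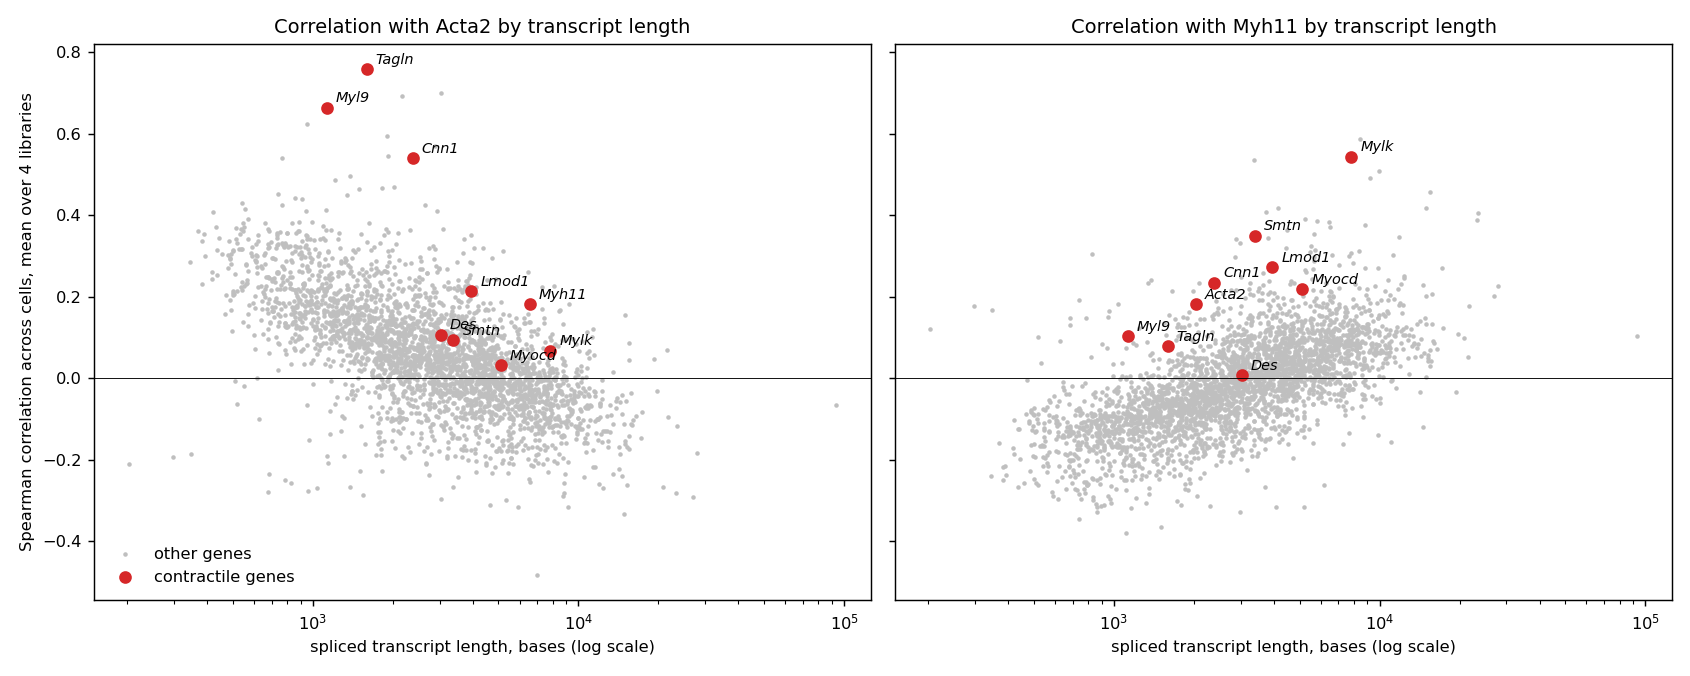
Correlation of each gene with Acta2 (left) and with Myh11 (right) across smooth muscle-gated cells, mean over 4 libraries, against spliced transcript length in bases (log scale); grey points are 3069 other genes and red points the contractile genes. Grey points slope down with length for Acta2 and up for Myh11, while Tagln (0.76), Myl9 (0.66) and Cnn1 (0.54) on the left and Mylk (0.54) on the right lie near the top of them.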

How the data were processed

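Single cells of mouse aortic arches were captured with droplet 3′ chemistry. The authors deposited filtered matrices of raw UMI counts, made with Cell Ranger 6.1.2 on mm10 per the labels, with no further normalization. From these counts, barcodes were kept by the study's limits (no fewer than 200 and no more than 6000 genes, mitochondrial share up to 15%). Cells were gated on raw UMIs: smooth muscle (Myh11 at least 5; Ptprc, Pdgfra and Cdh5 at 0), fibroblast (Pdgfra at least 2, Myh11 under 5), endothelial (Cdh5 at least 1, Pecam1 at least 2, Myh11 under 5) and leukocyte (Ptprc at least 2, Pdgfra and Cdh5 at 0). UMIs were summed over cells and given as CPM. Intervals were exact (Poisson for a level, the binomial split for a ratio, Clopper-Pearson for a share of cells).

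No test was run, since each group is 1 library. All genes with at least 100 UMIs in the 2 libraries compared formed the background. Correlations used UMIs per 10000 in each cell. Among genes with a mean of at least 0.5 UMIs a cell in every library, the 8 with the highest and the 8 with the lowest correlation to the sum were named, with the nearest gene to each member. List genes were named with values where they passed the limit in the same direction in both label or both diet comparisons. Doublets were not removed. Scrublet, run as an alternative, called 183, 61, 10 and 11 cells, and in the last library that is 0.485% of 2266 cells. The ratio and correlation steps were tested on simulated data. Positions are those of GENCODE M21 (GRCm38). Computation used scanpy 1.11.5, pandas 2.3.3, scipy 1.17.1 and numpy 2.4.6 under Python 3.11.15. Alternatives were other gates, filters, scales and denominators, subtraction of the leukocyte level and thinning to 5000 UMIs. The 10 genes and all lists were chosen with earlier results of these data known. Reads of overlapping genes on opposite strands may not be told apart where strand was not used in counting, which is not given in the sources used here. One part of the atherosclerosis model's treatment is not reported here.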

Additional observations from a re-analysis of the deposited data

Results flagged for a closer look

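For 5 contractile genes and for the sum of the 10, the log2 ratio between labels in smooth muscle-gated cells had one sign in the normocholesterolemic libraries and the other in the atherosclerotic libraries, with counting intervals that left out 0 on both sides. With 1 library a group the difference between the ratios was not tested. The difference, normocholesterolemic minus atherosclerotic, was -3.43 for Des (-2.17 and 1.26) and 1.06 for Lmod1 (0.60 and -0.46). It was 0.65 for Myh11 (0.34 and -0.31), -0.32 for Acta2 (-0.11 and 0.21) and -0.31 for Tagln (-0.12 and 0.19). For the sum it was -0.15 (-0.04 and 0.11). In the atherosclerotic libraries, cells with at least 2% of their UMIs from the 10 genes, a set chosen by these genes, were also read. There Acta2 was at 21608 CPM under the Nrf2Cdh5tKO label against 20448, and Tagln at 15053 against 14169, closer than over all cells. Myh11 was at 3383 against 4467, which was not closer. The Des value of the atherosclerotic Nrf2flox/flox library rests on 15 UMIs in 61 cells. Without cells of at least 5 Des UMIs the atherosclerotic Des ratio of 1.26 turned to -0.36. That value rests on 18 against 6 UMIs, in cells chosen by Des itself, so it cannot settle the sign. The atherosclerotic Des ratio fell short of 1.5-fold when cells were thinned to 5000 UMIs or when cells with Pdgfra or Cdh5 were kept.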

How the results depend on the processing

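No paired analysis was possible because each group is 1 library. The first 2 comparisons below are between labels (normocholesterolemic, then atherosclerotic) and the last 2 between diets (Nrf2flox/flox, then labelled Nrf2Cdh5tKO).

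The log2 ratios of the summed genes (-0.042, 0.11, -0.18 and -0.031) kept their sign under every alternative run but 1, in the last comparison. They became -0.084 (the first) and -0.20 (the third) when thinned to 5000 UMIs, -0.097, 0.17 and -0.29 (the first 3) as a mean over cells, and -0.11, 0.15, -0.29 and -0.015 on a median-of-ratios scale. With the leukocyte level subtracted they were -0.028 (the first), -0.13 (the third) and -0.0092 (the last). A Myh11 gate of 10 gave 0.086, -0.15 and -0.020 (the last 3), a gate of 3 gave -0.049 (the first), no cell filter -0.056 (the first), and the gate without members 0.13 (the second) and -0.013 (the last). Cells with Pdgfra or Cdh5, an alternative chosen after seeing the data, gave -0.092, 0.083 and -0.22 (the first 3) when kept. Cells with at most 5% mitochondrial UMIs gave -0.012, 0.045, -0.053 and 0.0043, and leaving out the 1 cell of each library richest in fibroblast markers gave 0.072 (the second) and -0.13 (the third), both also chosen after seeing the data.

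The number of members past 1.5-fold (2, 1, 1 and 1) became 1 in the first comparison when thinned, averaged over cells or rescaled by median of ratios, since Lmod1 fell short. It became 0 in the second when thinned or with Pdgfra or Cdh5 cells kept. It also became 0 there without cells of at least 5 Des UMIs, another choice made after seeing the data. The Des ratio was then -0.36, on 18 against 6 UMIs. The number of members became 0 in the third without those cells, and 0 in the last when thinned. The Des ratio ran from -0.36 to 3.36 in the second and from -5.01 to -0.56 in the third. Of 600 single-gene values under alternatives, 15 had the other sign than the main value, 1 of them a value past the limit.

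The median correlation became 0.075 over all 45 pairs and 0.19 within the group of Myh11 when thinned, and 0.16 between groups with Pdgfra or Cdh5 cells kept. The leukocyte level became 0.892%, 0.697%, 0.485% and 1.0% of the smooth muscle level with Myh11 under 5, 2.85%, 1.40% and 0.535% (first 3 libraries) with Scrublet calls removed, and 2.86%, 2.21%, 1.07% and 2.41% as a mean over cells. The fibroblast sum became 1933, 1042, 574 and 1908 CPM with no limit on Myh11, and -1277, -976, 114 and 101 with the level of all leukocytes subtracted, which includes the leukocytes with at least 5 Myh11 UMIs. Depth limits Des most, with 15 UMIs in 1 library.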
